A study of Mus musculus with 10 samples.

Results

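The respiratory chain is the set of inner membrane complexes by which mitochondria turn food energy into ATP, and its subunits are encoded in 2 genomes. Members were taken by name and position: every protein-coding gene of the mitochondrial chromosome, together with nuclear genes whose symbols begin Nduf, Uqcr, Atp5, Cox4i, Cox5, Cox6, Cox7 or Cox8, and Sdha, Sdhb, Sdhc, Sdhd and Cycs. This gave 105 of the 24368 genes in the table, 13 mitochondrial and 92 nuclear. By complex the nuclear members comprised 44 genes of complex I (7 core, 29 accessory and 8 assembly factors), 4 of complex II, 8 of complex III, 18 of complex IV, 17 of complex V and cytochrome c. A rule on names leaves out some chain genes, such as Cyc1, which encodes cytochrome c1.

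RNA-seq was performed on total RNA of mouse proximal jejunum, the stretch of small intestine where most fat is taken up. Of the 10 libraries, 5 were labelled WT (numbered 1, 3, 4, 5 and 6) and 5 were labelled HuR cKO (numbered 1 to 5), with both groups drawn from the same litters and the deletion directed to the intestinal epithelium. HuR, the product of Elavl1, is an RNA-binding protein that prefers AU-rich elements. The sources used here do not give the Cre driver, the deleted exons, or the age and sex of the mice. Elavl1 itself ran from 631 to 709 normalised reads over the WT libraries and from 556 to 725 over the cKO libraries (limma adjusted p = 0.798), so its summed reads did not separate the labels. The count covers the whole gene and the whole tissue wall, so reads from any undeleted exons and from other cells are part of it, and the names WT and cKO below are the labels.

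Complexes I and II feed electrons into ubiquinone, complex III passes them to cytochrome c, complex IV hands them to oxygen, and complex V, the ATP synthase, uses the resulting proton gradient. All complexes but II combine subunits from both genomes. The mitochondrial genes are transcribed as long precursors from both strands of the circular genome and cut into messengers, transfer and ribosomal RNAs, whereas each nuclear member is transcribed as a separate gene. The absorptive enterocyte of the jejunum is rich in mitochondria, and so is the muscle of the gut wall that lies in the same sample.

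Some promoter motifs, which the selection did not use, were more frequent among nuclear members than among all genes. RefSeq promoter windows (GRCm38.p6, 250 bases before to 50 bases after each start) were found for 74 of the 92 nuclear members. The palindromic NRF1 motif GCGCANGCGC, bound by a factor long tied to respiratory chain genes, occurred in 19 of 74 (25.7%) against 5.19% of 27025 genes. The ETS core CCGGAAG, bound by GABP among others, occurred in 18 (24.3%) against 9.93%, and the YY1 motif AAGATGGC in 10 (13.5%) against 3.19%. The CCAAT box, CCAAT, was found in 33 (44.6%) against 41.1% of genes, close to the general rate. Both strands were searched for each motif, and the 27025 genes were not limited to those expressed in the jejunum. At least 1 of the NRF1, ETS and YY1 motifs was present in 40 of the 74 members, 2 or more in 7 and all 3 in none. These matches describe letters only and say nothing of binding in these mice. To show where the matches lie relative to the start, 3 windows are printed 5′ to 3′ on the coding strand with the matches in capitals. The window of Atp5k at chr5:108434350-108434649 (minus strand; NRF1, then ETS on the opposite strand), of Uqcrc1 at chr9:108936398-108936697 (plus strand; 2 NRF1 matches) and of Ndufs4 at chr13:114388045-114388344 (minus strand; YY1) follow.
Atp5k: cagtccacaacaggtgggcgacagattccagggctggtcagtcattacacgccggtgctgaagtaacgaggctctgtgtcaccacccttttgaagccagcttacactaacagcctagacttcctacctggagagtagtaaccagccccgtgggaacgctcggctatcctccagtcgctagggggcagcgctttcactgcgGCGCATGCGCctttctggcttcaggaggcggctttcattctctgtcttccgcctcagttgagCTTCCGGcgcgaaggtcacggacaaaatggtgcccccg
Uqcrc1: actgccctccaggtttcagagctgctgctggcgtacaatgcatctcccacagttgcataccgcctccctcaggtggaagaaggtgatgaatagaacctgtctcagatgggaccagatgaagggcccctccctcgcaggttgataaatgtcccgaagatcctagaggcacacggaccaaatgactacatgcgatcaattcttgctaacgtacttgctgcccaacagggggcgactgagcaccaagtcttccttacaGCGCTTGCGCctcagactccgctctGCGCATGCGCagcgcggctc
Ndufs4: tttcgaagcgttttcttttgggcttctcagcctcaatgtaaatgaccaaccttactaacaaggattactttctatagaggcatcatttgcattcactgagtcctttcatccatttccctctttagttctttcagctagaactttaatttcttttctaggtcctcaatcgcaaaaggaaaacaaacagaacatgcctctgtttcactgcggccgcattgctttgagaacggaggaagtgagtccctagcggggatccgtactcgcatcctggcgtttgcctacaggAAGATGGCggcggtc

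The mitochondrial members were examined for a different feature: a stretch of chromosome 1 carries near-identical copies of part of the mitochondrial genome. Each member's transcript was cut into all its 50-base stretches, and these were looked up in every other annotated transcript (GENCODE M21, GRCm38). More than 90% of the stretches of mt-Co2, mt-Atp6, mt-Co3, mt-Nd3 and mt-Nd4l also occurred in another gene, as did 62.2% of those of mt-Nd4 and 51.1% of those of mt-Co1. The leading partners were unprocessed pseudogenes on the minus strand of chromosome 1 between 24611535 and 24616197. Gm28661 matched mt-Co2 over 681 bases with 0 mismatches, Gm10925 matched mt-Atp6 over 678 with 0, and Gm28438 matched mt-Nd3 over 345 with 1. For mt-Nd1, mt-Nd6 and mt-Cytb no stretch was shared. The first 60 bases of the aligned part are shown for 3 genes and their copies, with differing bases in capitals: mt-Co2 (MT:7013-7072) with Gm28661 (chr1:24615506-24615565), mt-Nd3 (MT:9459-9518) with Gm28438 (chr1:24613060-24613119) and mt-Co1 (MT:6381-6440) with Gm29216 (chr1:24616138-24616197).
mt-Co2: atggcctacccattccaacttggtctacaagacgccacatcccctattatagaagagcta
Gm28661: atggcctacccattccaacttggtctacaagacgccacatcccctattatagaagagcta
mt-Nd3: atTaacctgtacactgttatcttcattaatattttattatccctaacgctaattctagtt
Gm28438: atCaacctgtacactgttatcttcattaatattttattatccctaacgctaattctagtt
mt-Co1: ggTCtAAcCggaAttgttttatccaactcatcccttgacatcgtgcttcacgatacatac
Gm29216: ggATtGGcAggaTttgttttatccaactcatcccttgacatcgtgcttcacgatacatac

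The mitochondrial members with nearly all stretches shared stood apart in level. Normalised reads are counts divided by 1 scaling factor per library, and levels of different genes are compared only per kilobase of gene. The 5 genes with over 90% shared stretches stood at 526 (mt-Nd4l) to 3395 (mt-Co3) normalised reads per kilobase over the 10 libraries. The other 7, leaving out mt-Atp8, stood at 31246 (mt-Nd5) to 220714 (mt-Co1), so the ranges were far apart although most of these genes leave the same precursor. Below that share the order did not follow sharing, as mt-Co1 (51.1% shared) was the highest and mt-Nd4 (62.2%) lay above mt-Nd5 and mt-Nd6. The lowest of all was mt-Atp8, at 28.2, with no stretch shared with an annotated transcript. It starts between mt-Co2 and mt-Atp6, whose copies Gm28661 (from 24614885) and Gm10925 (up to 24614651) adjoin on chromosome 1. Unannotated bases between the copies were not searched, so any sharing of mt-Atp8 there is not known. mt-Co1 came first, then mt-Nd1 at 109224 and mt-Cytb at 103086. The sources used here do not say how reads with several matches were counted, and its part in these levels was not tested. Beside each gene its copy took a similar number of reads: the copy-to-gene ratio had a median over libraries of 0.869 for Gm28661 and mt-Co2, 1.18 for Gm10925 and mt-Atp6, 0.765 for Gm10222 and mt-Nd4l and 0.508 for Gm28438 and mt-Nd3. It was only 0.00254 for Gm29216 and mt-Co1 and 0.00958 for Gm28439 and mt-Nd4. Gm28437 departed from its partner mt-Co3 in single libraries, with a median ratio of 0.833 and a highest of 4.33 in WT 6. Its value was 24401 in cKO 1 and 1236 to 7707 in the WT libraries.

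**Figure D1:**
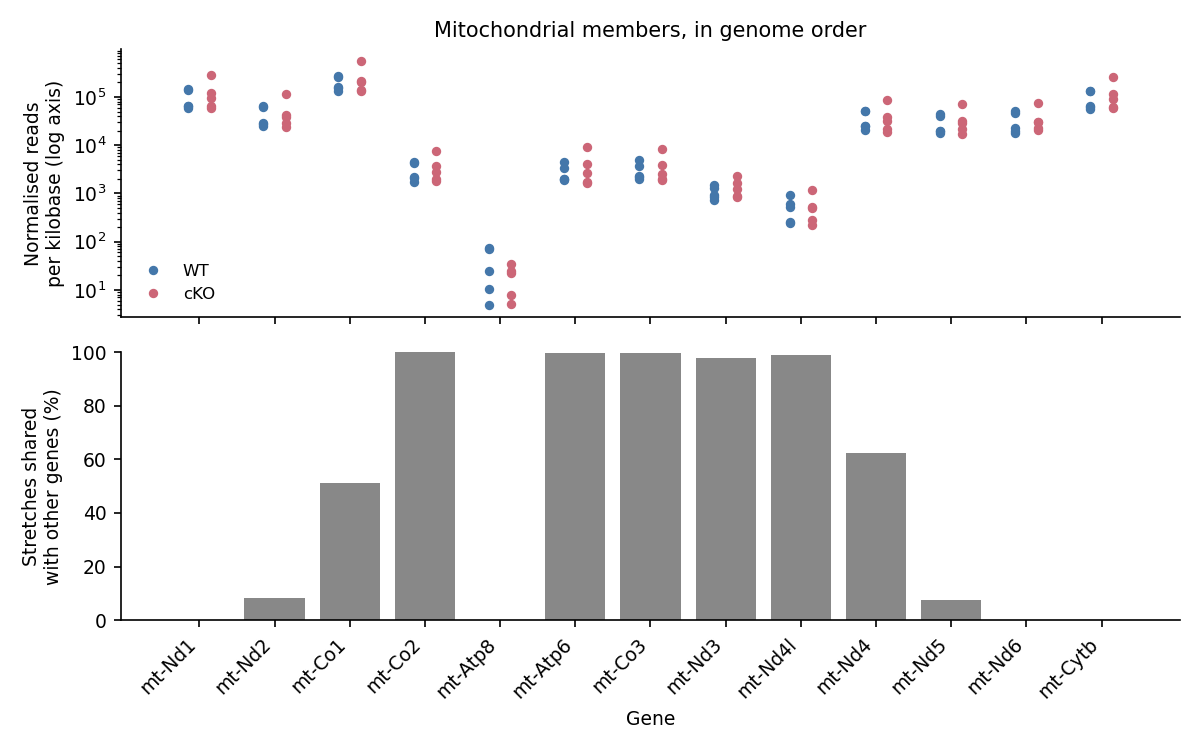
Levels of the 13 mitochondrial members in genome order. Upper panel: normalised reads per kilobase in each of the 5 WT (blue) and 5 cKO (red) libraries, on a log axis. Lower panel: percent of each transcript's 50-base stretches also found in another annotated gene. The 5 genes with over 90% shared stretches lie between 526 and 3395 on average, and the 7 others beside mt-Atp8 between 31246 and 220714.

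mt-Atp8, a small membrane subunit of the ATP synthase, was almost absent from the counts. Its 204 bases overlap mt-Atp6 by 43, and its normalised values were 5.11, 15.2, 14.6, 0.998 and 2.17 in WT and 5.09, 4.55, 1.59, 1.07 and 7.21 in cKO. No annotated transcript shares its 50-base stretches, but only annotated transcripts were searched, and it did not pass the filter on low values. mt-Nd6 is the one member on the other strand (MT, 13552 to 14070), and mt-Nd5 overlaps it by 14 bases. At 33479 normalised reads per kilobase it lay beside mt-Nd5, at 31246. With no strand setting stated for the counting, reads from mt-Nd6 and from precursor of the opposite strand cannot be told apart.

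The amount of mitochondrial messenger varied widely between mice of both labels. The 13 mitochondrial members took 5.22%, 5.42%, 2.87%, 2.46% and 2.70% of the counted reads in WT 1, 3, 4, 5 and 6. In cKO 1 to 5 they took 8.94%, 2.77%, 5.64%, 2.52% and 4.40%. cKO 1 stood above every other library, and the remaining cKO values lay among or just above those of WT. The 92 nuclear members were far steadier, at 1.84%, 2.36%, 2.31%, 2.01% and 1.91% in WT and 2.29%, 2.32%, 2.46%, 2.28% and 2.10% in cKO. Counted reads ran from 16063987 to 18927440 per library, so these shares rest on 323364 or more reads for the nuclear set and 425458 or more for the mitochondrial set. Because the tissue is bulk, fewer cells of a type and less RNA per cell cannot be told apart.

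Set against the nuclear members of the same library, the mitochondrial sum was 2.84, 2.30, 1.24, 1.23 and 1.42 times as high in WT, and 3.91, 1.19, 2.29, 1.11 and 2.10 times in cKO. Scaling factors cancel in this ratio. The values fell into an upper set of 5 libraries at 2.10 or more (WT 1, WT 3, cKO 1, cKO 3, cKO 5) and a lower set of 5 at 1.42 or less, and each set held mice of both labels. On the log2 scale the ratio was 0.76 ± 0.55 in WT against 0.93 ± 0.75 in cKO (SD, n = 5 each), a difference of 0.16 that is smaller than either SD. Without cKO 1 the cKO mean was 0.67 ± 0.54, below that of WT by a difference of -0.10. Giving each gene equal weight, as the mean log2 value of mitochondrial minus nuclear members, reduced the difference to 0.02. That mean weighs mt-Atp8 and the other members under the filter on low values as much as the rest. Leaving out mt-Atp8 and the 5 members with over 90% shared stretches, which held 0.9% to 1.2% of the mitochondrial sum, left it at 0.16. No p-value is given for a score over chosen members.

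**Figure D2:**
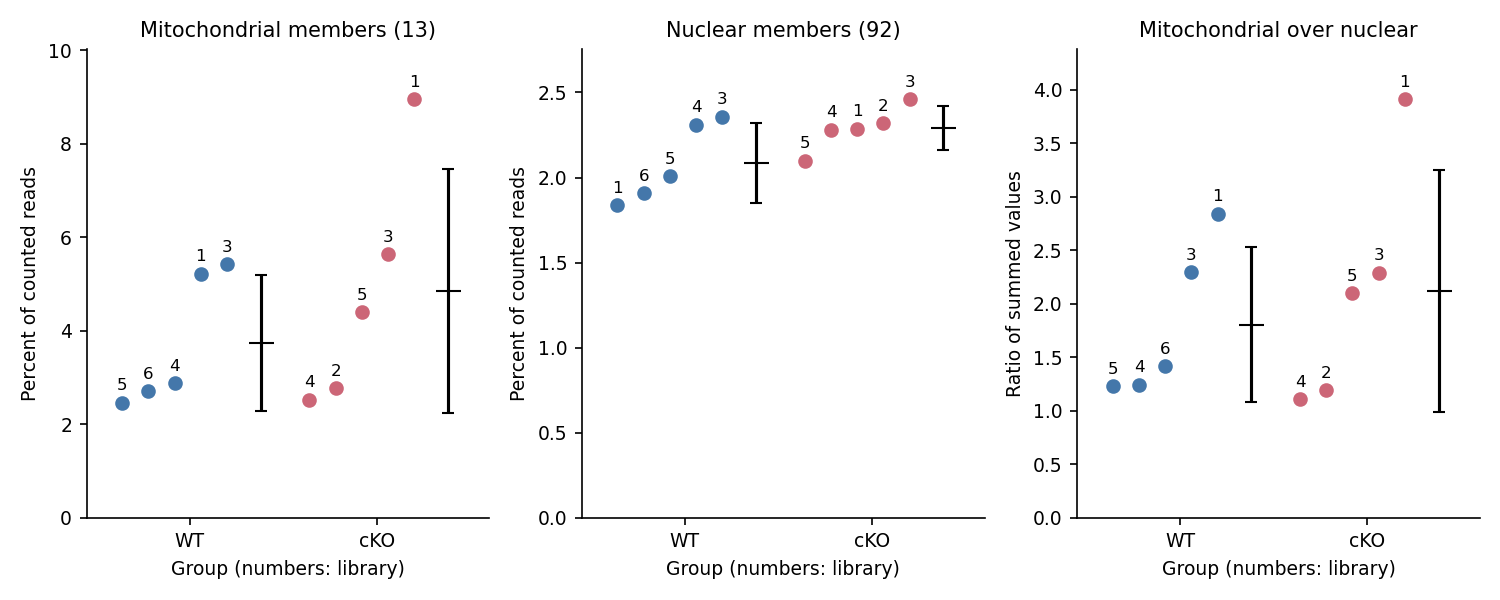
Share of counted reads from the mitochondrial members (left, percent) and nuclear members (middle, percent), and the ratio of their summed normalised values (right), in each library. Dots are single mice, numbered as in the labels, and the bar is the mean with its SD (n = 5). cKO 1 is highest for the mitochondrial share (8.94%) and the ratio (3.91), and libraries of both labels lie in the upper and lower sets.

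Other mitochondrial RNAs did not follow the messengers in full. The 2 mitochondrial ribosomal RNAs, outside the selection, summed to 0.221% to 0.480% of reads in WT and 0.257% to 0.516% in cKO. Their ratio to the mitochondrial messengers was 0.0919, 0.0814, 0.152, 0.0897 and 0.142 in WT and 0.0576, 0.110, 0.0760, 0.102 and 0.0722 in cKO. The lowest ratio belonged to cKO 1, where messengers were highest. Mitochondrial transfer RNAs took 0.00948% to 0.0314% of reads in WT and 0.0201% (cKO 1) to 0.0282% (cKO 5) in cKO. Library preparation can remove ribosomal and short RNAs to different degrees, and its part in these values was not tested. mt-Rnr1, the small ribosomal RNA, stood at 17262 ± 4992 normalised reads over the WT libraries against 12853 ± 7755 in cKO (SD, n = 5 each; limma adjusted p = 0.404). Its log2 fold change was -0.52, and -0.82 without cKO 1. mt-Rnr2, the large ribosomal RNA, stood at 51912 ± 14154 and 48258 ± 17436 (log2 fold change -0.11, limma adjusted p = 0.849, -0.31 without cKO 1).

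For single genes, values were compared as log2(value + 1) with limma across all 14062 genes with a mean of 10 or more, with Benjamini-Hochberg adjustment over the same genes. Of the 105 members 100 were tested, 12 mitochondrial and 88 nuclear. mt-Atp8, Ndufa4l2, Cox4i2, Cox8b and Cox6a2 fell under the filter. None of the 100 passed an adjusted p of 0.05, against 1.32% of all genes tested (0.441% higher and 0.882% lower in cKO). At an unadjusted p under 0.05 there were 6 members, all with higher cKO means (Ndufaf6, Ndufa4, Ndufaf2, Atp5k, Cox6b2 and Ndufs4), against 18.6% of all genes (8.46% higher, 10.1% lower). With edgeR no member passed the adjusted threshold and 7 the unadjusted one, where 1.29% and 19.0% of all genes did. DESeq2 likewise called no member and put 10 under the unadjusted threshold, against 5.08% and 19.5% of all genes, with a smallest adjusted p of 0.0573 for Ndufa4. Separation without overlap of the 2 groups was seen for no tested member and for 4.87% of all genes. A p that misses the threshold does not show equal levels. The 95% interval of a log2 difference reached a median of 0.42 to either side for nuclear members and 0.85 for mitochondrial members.

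On the deposited scaling, most members had fold changes slightly above 0, and this rested on cKO 1. The median log2 fold change (cKO minus WT) was 0.14 over the 100 members, 72 of them above 0, against 0.01 over all genes tested, of which 51.0% were above 0. It was 0.20 for the mitochondrial members (12 of 12 above 0) and 0.13 for the nuclear ones (60 of 88). Without cKO 1 the mitochondrial median was -0.13, with 1 of 12 above 0, and the nuclear median was -0.00013, with 44 of 88 above 0. cKO 1 held the highest value for 12 of the 12 mitochondrial and 49 of the 88 nuclear members tested. No such count over all genes is given, so these counts alone do not set the members apart. In share of reads, however, the nuclear members of cKO 1 were not the highest, at 2.29% against 2.46% in cKO 3. The mean nuclear share was 2.08% in WT and 2.29% in cKO, and it was also 2.29% in cKO without cKO 1. The difference in nuclear share therefore did not rest on that library. cKO 1 was also scaled up the most, with 1.27 normalised reads per counted read against 0.793 to 1.08 in the other libraries.

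**Figure D3:**
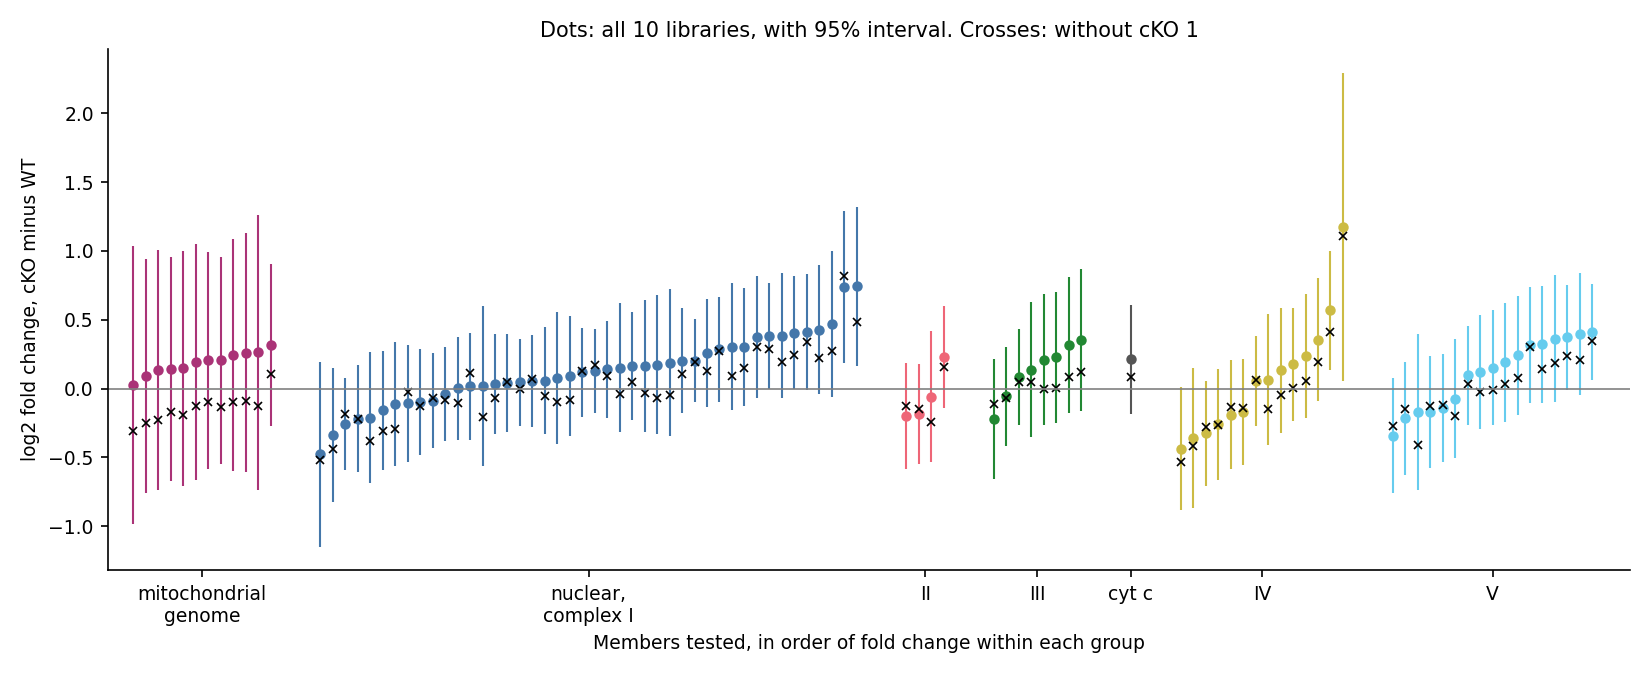
Log2 fold change (cKO minus WT) of the 100 members tested, ordered within the mitochondrial genome and within each nuclear group of complex I to V and cytochrome c. Dots are estimates from all 10 libraries with 95% intervals, and crosses are estimates without cKO 1. The 12 mitochondrial members lie above 0 with all libraries, and 11 of them below 0 without cKO 1.

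Several other readouts moved with the libraries. Proliferating crypt markers (11 genes, 10 tested) summed to 2420 to 3304 normalised reads in WT and to 7402, 2280, 5628, 2699 and 4247 in cKO 1 to 5, so the 3 cKO libraries of the upper set were also those with the highest crypt sums. In WT 1 and WT 3, which belong to the upper set as well, the crypt sums were 3090 and 3094, inside the WT range. Immune markers (9 genes in the table) summed to 30378, 24362, 27076, 16367 and 20305 in WT and to 39111, 23331, 43821, 11489 and 30918 in cKO. Enterocyte markers (12 genes) summed to between 1227029 and 1416935 in WT and between 861930 (cKO 3) and 1674886 (cKO 1) in cKO. Taken singly, 10 of the 12 had log2 fold changes below 0 and 2 above, with a median of -0.26, and none was called. Apoa4 ran from 106687 to 156037 in WT and from 43615 to 100103 in cKO (-0.86, limma adjusted p = 0.0774). Alpi ran from 21832 to 32799 and from 10067 to 34617 (-0.72, limma adjusted p = 0.177). Smooth muscle markers (8 genes) ran from 31778 to 54142 in WT and from 27775 to 68727 in cKO. Fibroblast markers (6 genes) ran from 4847 to 6066 in WT and from 6211 to 9835 in cKO, without overlap, and endothelial and erythroid markers (9 genes) from 430 to 1014 and from 961 to 2121. Col3a1, Col1a1 and the lymphatic marker Lyve1 of these lists rose in cKO, by 0.75, 1.02 and 1.63 on the log2 scale (limma adjusted p = 0.0357, 0.0426 and 0.0027). Pancreas markers (5 genes in the table) stayed between 104 and 206 with Cpa1 at 0 in every library. cKO 3 and cKO 5 differed from the rest in clock genes, with summed values of 5278 and 5575 against 7559 to 13266 elsewhere. The part of these readouts in the respiratory chain values was not tested.

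mt-Co1, the catalytic subunit of complex IV, stood at 414462, 398091, 236923, 203865 and 243602 normalised reads in WT 1, 3, 4, 5 and 6. In cKO 1 to 5 it stood at 842706, 210192, 334147, 215787 and 310254. WT 4, 5 and 6 and cKO 2 and 4 lay close together and only cKO 1 exceeded the WT maximum, so the groups overlapped (log2 fold change 0.21 ± 0.35 SE, limma adjusted p = 0.790). mt-Cytb, the mitochondrial subunit of complex III, had a similar profile, with 151956, 152381, 71439, 65378 and 73566 in WT and 293154, 66963, 132873, 69253 and 102339 in cKO. Among the complex I subunits, mt-Nd1 ran from 55487 to 140305 in WT and from 56348 to 266971 in cKO, and mt-Nd5 from 32070 to 82220 and from 31896 to 128740. The 12 fold changes lay between 0.02 for mt-Nd4l and 0.32 for mt-Nd3, with standard errors of 0.28 (mt-Nd3) to 0.46 (mt-Nd4l), and the smallest adjusted p was 0.559. mt-Atp6, the proton channel subunit of the ATP synthase, had a log2 fold change of 0.26 ± 0.45 SE. Without cKO 1, mt-Nd3 alone stayed above 0, at 0.11.

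Complex I is the largest member of the chain, and its 44 nuclear members had a median log2 fold change of 0.12, with 33 above 0 and 22 above 0 without cKO 1. The 7 core subunits, which carry the flavin and most iron-sulfur clusters, had a median of 0.12, and the 29 accessory subunits 0.08. Ndufv2, a core subunit with an iron-sulfur cluster, stood at 4465, 4917, 3776, 3428 and 3949 normalised reads in WT and at 9780, 4248, 5851, 4776 and 4258 in cKO. Its cKO 1 value was above all others and the rest overlapped (log2 fold change 0.43 ± 0.22 SE, 0.22 without cKO 1). Ndufs8, another iron-sulfur subunit, had a similar profile, with 3767 in cKO 1 and 1385 to 2235 elsewhere. Ndufv1, which binds the flavin, and the core subunit Ndufs7 had negative values, -0.22 and -0.26.

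Of the accessory subunits, Ndufs4 (chr13:114287795-114388258), needed for a stable peripheral arm, had WT values of 2070, 2246, 2021, 1608 and 1791 and cKO values of 3277, 1947, 3196, 2258 and 2216. Here cKO 1 and cKO 3 were high, cKO 4 was just above the WT range, and cKO 2 and cKO 5 lay inside it (0.38 ± 0.18 SE, limma adjusted p = 0.269). Ndufb4, a membrane arm subunit, had a log2 fold change of 0.41 ± 0.19 SE. The lowest value belonged to Ndufa12 (chr10:94198720-94221443), at -0.48 ± 0.31 SE. Its WT values were scattered, 299, 1242, 645, 691 and 345, while cKO values were 453, 391, 427, 433 and 333, all inside the WT range. Ndufs6, a zinc-binding subunit, stood at 573 ± 164 in WT and 450 ± 117 in cKO. The most abundant nuclear members of complex I per kilobase were Ndufa2, Ndufa1 and Ndufb11, at 2546, 2516 and 2461 normalised reads per kilobase.

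Complex I assembly factors, which help build the complex and are absent from the finished enzyme, had the highest median among the roles of complex I, 0.39 with 7 of 8 above 0, and 0.29 without cKO 1. Their counts were low. Ndufaf6 (chr4:11051045-11076205) stood at 62.4, 50.6, 58.5, 25.9 and 34.7 normalised reads in WT and 58.5, 90.03, 79.3, 68.2 and 78.6 in cKO. All cKO libraries but cKO 1 exceeded the WT maximum (0.74 ± 0.26 SE, limma adjusted p = 0.151). Ndufaf2 (chr13:108002715-108158623) stood at 52.2, 68.9, 77.0, 63.8 and 47.6 in WT and 211, 97.3, 97.5, 71.4 and 79.4 in cKO, with cKO 4 below the WT maximum (0.74 ± 0.27 SE, limma adjusted p = 0.165). Unlike most members, Ndufaf6 kept its difference without cKO 1, at 0.82, whereas Ndufaf2 then stood at 0.48. Ndufaf4 and Ndufaf7 had values of 0.47 and 0.41, and Ndufaf1 was the exception at -0.10.

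Complex II, succinate dehydrogenase, is encoded wholly in the nucleus and also acts in the tricarboxylic acid cycle. Its 4 genes had a median log2 fold change of -0.12 with 1 above 0. Sdhb, the iron-sulfur subunit, was the one above 0, at 8486 ± 1006 normalised reads in WT against 10024 ± 1744 in cKO (SD, n = 5 each; 0.23 ± 0.18 SE). Sdha, the flavoprotein, stood at 8837 ± 397 and 7906 ± 1628, and Sdhd, a membrane anchor, at 7231 ± 1588 and 7109 ± 2501. The WT values of Sdha ranged from 8462 to 9319 and those of cKO from 5934 to 10290, so the groups overlapped fully while their spread differed.

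Complex III and cytochrome c had small positive medians, 0.17 over 8 genes and 0.21 for Cycs. Uqcrfs1, the Rieske iron-sulfur protein, was steady, with WT values from 7462 to 8354 and cKO values from 6825 to 10111 (0.08 ± 0.16 SE). Uqcrc1 and Uqcrc2, the pair of large core proteins that sit in the complex together, parted company in cKO 1. Uqcrc1 had its lowest value of all libraries there, 6706 against 7123 to 13582. Uqcrc2 had its highest there, 15146 against 6093 to 9088. Over the groups, Uqcrc1 had a log2 fold change of -0.22 ± 0.21 SE and Uqcrc2 of 0.21 ± 0.22 SE. Uqcrh and Uqcr10, small subunits, were also highest in cKO 1, at 12836 and 4772. Cycs, the mobile carrier, stood at 12202, 13700, 12667, 12986 and 14133 in WT and 21868, 11787, 14578, 16617 and 13057 in cKO (0.21 ± 0.19 SE).

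Complex IV is known for subunits with tissue isoforms, and these data show which of them the jejunum wall holds. Cox4i1, the general isoform, was present at 7420 normalised reads per kilobase, and Cox4i2, the form of lung and low oxygen, at 10.2. Cox6a1 stood at 13411, the highest level of any nuclear member, against 11.3 for the muscle form Cox6a2. Cox8a stood at 9298 against 12.4 for the muscle form Cox8b. Cox7a1, the muscle form of Cox7a, was the exception among the muscle forms, at 2124 beside 8389 for Cox7a2. The smooth muscle markers Acta2 and Myh11 stood at 9664 ± 1470 and 10159 ± 2240 normalised reads in WT, while the skeletal or heart muscle list summed to 160 to 362 per library. Cox6b2, the testis form, was low at 170 per kilobase beside 8350 for Cox6b1. Ndufa4l2, the low oxygen relative of Ndufa4, was at 2.09 per kilobase. The name rule also covers Cox7b2 and Cox8c, but no protein-coding gene of either name was found in the table.

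The 14 nuclear complex IV members tested had a median log2 fold change of 0.06, with 8 above 0. Ndufa4 (chr6:11900292-11907497), once placed in complex I and now known as a subunit of complex IV, came nearest to a difference in the group. Its WT values were 4086, 3881, 4330, 4786 and 4341 and its cKO values 9847, 4441, 7573, 5935 and 5215. Of the cKO libraries 4 exceeded the WT maximum and cKO 2 did not (0.57 ± 0.20 SE, limma adjusted p = 0.155, 0.41 without cKO 1). Cox6b2 (chr7:4751792-4753094) had the largest fold change of all members, 1.18 ± 0.51 SE (limma adjusted p = 0.248), with 43.0, 69.9, 70.2, 251 and 186 in WT and 271, 254, 182, 452 and 107 in cKO. Its WT libraries were split, and those numbered 5 and 6 lay among the cKO values. At the other end, Cox5b (chr1:36691449-36693681), which binds zinc, had -0.44 ± 0.21 SE, with 1771, 3298, 3082, 2702 and 2437 in WT and 2508, 1750, 1411, 2536 and 1651 in cKO. Cox8a, Cox6a1 and Cox7a1 followed at -0.36, -0.33 and -0.26. Cox7a2l, which joins complexes III and IV into supercomplexes, stood at 1677 ± 224 and 1740 ± 209 (SD, n = 5 each; 0.05 ± 0.15 SE).

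Complex V had a median log2 fold change of 0.15 over 17 nuclear members, 11 above 0. The catalytic head and stalk (9 genes) had a median of 0.12 and the membrane part (7 genes) 0.36, which fell to 0.19 without cKO 1. Atp5b, the catalytic beta subunit, stood at 41481, 40114, 44636, 40087 and 38320 in WT and 29349, 39357, 27955, 49827 and 33482 in cKO. WT mice lay close together and cKO mice spread to both sides of them (-0.22 ± 0.19 SE). Per kilobase, Atp5b stood at 9077 normalised reads and Atp5a1, the alpha subunit, at 10203. Atp5a1 had the same order of cKO libraries, 26552, 33870, 22906, 41179 and 27617. Atp5c1, the rotor shaft, behaved otherwise in cKO 1, which at 17060 was its highest library. In the membrane part, Atp5k (chr5:108433244-108434448), subunit e at the dimer interface, stood at 941, 1448, 1230, 1056 and 1177 in WT and 1871, 1411, 1671, 1573 and 1255 in cKO. Of the cKO libraries 3 exceeded the WT maximum (0.41 ± 0.16 SE, limma adjusted p = 0.197). Atp5l, subunit g, had 0.40 ± 0.21 SE. The 3 genes for the rotating c ring, which yield the same mature protein, differed in level: Atp5g3 stood at 5021 normalised reads per kilobase, Atp5g2 at 818 and Atp5g1 at 444. Their log2 fold changes were -0.14, 0.37 and 0.10. Atp5g2 and Atp5l share 87.4% and 84.8% of their 50-base stretches with other annotated genes, mostly processed pseudogenes, so their counts are uncertain, as may be those of the 16 nuclear members with over 25% shared.

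Uqcrc1 and Uqcrc2, which parted in cKO 1, also differed in base composition, as did Atp5b and Atp5c1. Across the 88 nuclear members tested, transcript GC content and log2 fold change had a Spearman rho of -0.34 and a Pearson r of -0.30, and across 12832 genes with a transcript rho was -0.24. These are correlations across genes that share libraries, so no p is given. Uqcrc1 has 57.5% GC and Uqcrc2 44.4%, and Atp5b has 51.6% and Atp5c1 47.9%. In these pairs the member with less GC was the higher one in cKO 1 relative to its other libraries. Complex II went the other way. Sdhb (54.9% GC) and Sdhd (49.4%) had their highest values in cKO 1, 12246 and 11371. Sdha (48.5%) and Sdhc (48.7%) stood there at 7019 and 4074, below their WT ranges. Computed library by library, as the rho of GC with each nuclear member's deviation from its mean, the values were -0.17, 0.14, 0.44, 0.34 and 0.37 in WT and -0.38, 0.24, -0.27, 0.19 and -0.21 in cKO. All genes tested gave the most negative value in cKO 1 too, -0.53. Without cKO 1 the rho of GC with fold change was -0.25 over nuclear members. The mitochondrial transcripts have a median of 37.1% GC and the nuclear members 50.5%. The part of GC content in these differences was not tested.

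**Figure D4:**
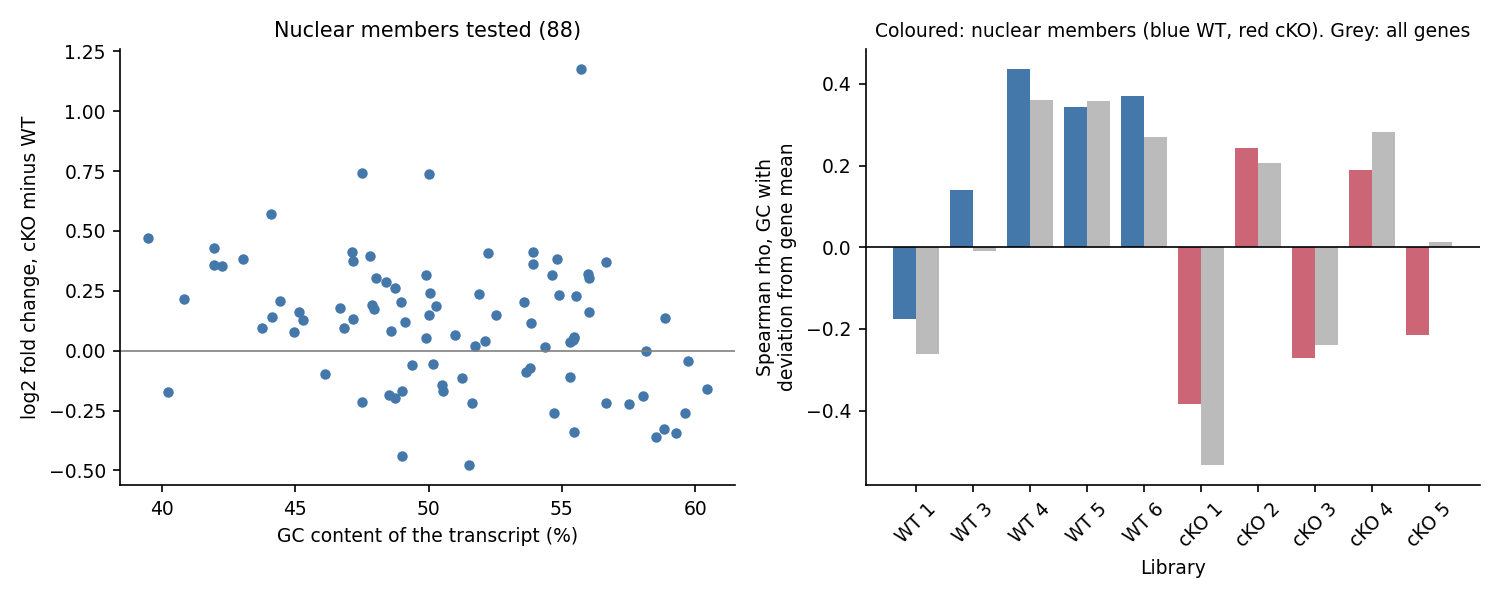
Base composition of the nuclear members. Left: log2 fold change (cKO minus WT) against transcript GC content (percent) for the 88 nuclear members tested. Right: Spearman rho between GC content and each gene's deviation from its mean in each library, for nuclear members (blue WT, red cKO) and all genes tested (grey). The rho is negative in WT 1, cKO 1, cKO 3 and cKO 5 for the nuclear members, lowest in cKO 1 at -0.38.

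HuR binds AU-rich stretches, so the pentamer ATTTA was counted in the 3′ untranslated regions. It occurred in 41 of the 88 nuclear members (46.6%) and in 66.9% of the 12832 genes, whose regions were much longer, with a median of 1006 bases against 176.5. Per kilobase the pentamer was found 2.19 times in nuclear members and 1.82 times in all genes. Members with the pentamer had a median log2 fold change of 0.18 and those without it 0.05. The same split over all genes gave 0.02 and -0.04. Cycs and Ndufaf4 had 8 copies each and Ndufv2 had 6, while Atp5k, Cox6b2 and Cox5b had none. The first 3 genes are low in GC, at 40.8%, 39.5% and 42.0%, and each was highest in cKO 1. The last 3 have 53.9%, 55.7% and 49.0%, and of them Atp5k was highest in cKO 1. No split without cKO 1 is given, and the part of GC content in the split was not tested. A match is a description of letters, and no binding was measured.

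Genes that support the chain were described from lists beside it. The mitochondrial ribosome, which translates the 13 mitochondrial messengers, had 77 genes tested, 70 of them above 0 with a median log2 fold change of 0.25, and 64 above 0 without cKO 1. None of the 77 passed the adjusted test, and 18 had an unadjusted p under 0.05, all higher in cKO, against 8.46% of all genes. Mrpl41 stood at 231 ± 21.3 normalised reads in WT against 363 ± 108 in cKO (SD, n = 5 each, as for the genes that follow; limma adjusted p = 0.112), and Mrps5 at 167 ± 28.1 and 261 ± 72.2. The import machinery had 20 genes tested with a median of 0.25, and 1 passed: Tomm20, a receptor of the outer membrane, rose from 780 ± 115 to 1314 ± 277 (SD, n = 5 each; log2 fold change 0.74 ± 0.17 SE, limma adjusted p = 0.0426). In the tricarboxylic acid cycle, 1 of 18 passed: Dlst, a subunit of the 2-oxoglutarate dehydrogenase complex, fell from 8231 ± 646 to 4340 ± 914, with a log2 fold change of -0.95 ± 0.17 SE (limma adjusted p = 0.0204).

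No gene passed in the other mitochondrial lists. Assembly factors outside the name rule (38 tested) had a median of 0.18, with Cox15, a heme A synthesis enzyme, at -0.58 (limma adjusted p = 0.0897) and Sdhaf4, an assembly factor of complex II, at 0.80 (limma adjusted p = 0.105). Regulators of respiratory chain genes (13 tested) had a median of -0.03. Among them Esrra, a nuclear receptor of oxidative metabolism, stood at 3526 ± 746 and 2169 ± 572 (limma adjusted p = 0.102), and Ppara at 158 ± 50.1 and 99.6 ± 46.3. Mitochondrial transcription and RNA processing (26 tested) had a median of 0.12, mitochondrial DNA maintenance (13 tested) 0.11, carriers and uncoupling proteins (16 tested) -0.07 and coenzyme Q synthesis (13 tested) -0.02. Ssbp1, which binds single-stranded mitochondrial DNA, stood at 85.8 ± 11.1 and 140 ± 48.3 (limma adjusted p = 0.158), and Ucp2 at 7066 ± 872 and 5202 ± 2041.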

How the data were processed

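Total RNA of 10 proximal jejunum samples was sequenced by the submitters. Per the submitters' processing notes, CASAVA, HISAT2 2.0.5 with mm10, featureCounts 1.5.0-p3 and DESeq2 1.20.0 were used, while for strand setting, annotation release and multiply matching reads the entry is: not given in the sources used here. The deposited values are a normalised signal, and each equals a count times 1 step per library: 100% of values were whole multiples within 0.001. Recovered reads ran from 16063987 to 18927440 per library, and replicates of a group differed beyond counting noise. The table holds 2 further columns of per-sample values, which were not used.

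Values were tested as log2(value + 1) with limma 3.58.1 in R 4.3.3 (trend and robust options, genotype alone, mean of 10 or more, 14062 of 24368 genes, Benjamini-Hochberg over all genes, threshold 0.05). The log scale understates changes of low genes. As the planned count test requires counts, edgeR 4.0.16 and DESeq2 1.42.0 on recovered reads served as alternatives, with other scalings, filters, pseudocounts, a replicate block and each library left out. Fitting steps were tested on simulated data. The labels name 5 mice per group, so p-values measure the spread between mice, and litters are not mapped.

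Named genes are the mitochondrial members, the 10 nuclear members with the largest and the 10 with the smallest fold change at a mean of 100 or more, isoform pairs, the 3 highest members per kilobase of each complex, and up to 4 called genes or the 2 with the smallest p of each other list. Ndufaf6, Ndufaf2, Ndufaf1, Uqcrc2, Sdhc, mt-Rnr1 and mt-Rnr2 were named after their values were seen. Members and lists were chosen with earlier results of these data known. Sequence features used GENCODE M21 and RefSeq promoters. Python 3.11.15 with matplotlib 3.10.9 drew the figures.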

Additional observations from a re-analysis of the deposited data

Results flagged for a closer look

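In groups of 5 libraries, a highest or lowest value was singled out where its gap to the nearest other took over 0.710 of the group's range. Of 122 groups examined, 19 met this, and 15 of the 19 were cKO 1. A rate of about 1 in 20 would hold for independent, normally spread values. These groups share the same libraries and include a sum over members, so the count cannot be read against that rate. No share over all genes is given. On the mitochondrial side these were mt-Co1 (842706 normalised reads in cKO 1, nearest other cKO library 334147), mt-Nd1 (266971), mt-Nd2 (117619), mt-Nd4 (120126), mt-Nd5 (128740), mt-Nd6 (38619) and the summed mitochondrial members (1826890.5, nearest 756183). Nuclear members singled out in cKO 1 were Ndufv2 (9780), Uqcrh (12836), Uqcr10 (4772), Ndufs8 (3767), Ndufa2 (2594), Atp5g2 (2199), Ndufaf4 (593) and Ndufaf7 (139).

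In WT, Cox6a1 was low in WT 1 (8607), Ndufb11 high in WT 3 (2826), Uqcrc1 high in WT 4 (12681) and Ndufa4l2 high in WT 5 (4.99, a handful of reads).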

How the results depend on the processing

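No member was called under any of 23 alternatives, where 30 to 715 of all genes were. The count over all genes, 186 as reported, was 715 with DESeq2, 42 with limma without trend and robust options, and 56 without cKO 3 and cKO 5. Leaving out each library in turn gave 30 (without WT 4) to 611 (without cKO 4) calls. Same-numbered libraries correlated from -0.11 to 0.12 in their deviations and 1 of 8 correlated best with its own number. With only 4 shared numbers and no litters mapped, these values cannot decide whether the numbers pair the mice. The fit with the replicate number as a block (8 libraries) called 134 genes, and 89 without the block on the same libraries. Over all genes the median log2 fold change was 0.14 with library totals, where mitochondrial members stood at 0.34 and nuclear ones at 0.22, and 0.12 with scaling to non-mitochondrial totals (0.32 and 0.24). Of 1219 values of 53 named members over the alternatives, 37 changed sign in 17 members, 14 of them without cKO 1, and none was called. The mitochondrial to nuclear log2 difference, 0.16 as reported, ran from -0.10 (without cKO 1) to 0.36 (without cKO 4) when 1 library was left out. Leaving out mt-Atp8 and the 5 mitochondrial members with over 90% shared stretches (0.16) was chosen after seeing the data. Low counts limit mt-Atp8 and the assembly factors.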
